A study of Mus musculus with 8 samples.

Results

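The genes described here encode clathrin, the adaptor protein complexes AP-1 to AP-5 and the proteins that start, bend, cut and uncoat clathrin-coated vesicles. They were chosen by the names of their gene families, and 58 of the 16974 genes in the deposited table belong to them. These are the 3 clathrin chains, 27 adaptor complex subunits, 3 GGA adaptors, 11 coat initiation and cargo adaptors, 5 membrane-bending proteins, 3 dynamins, 2 synaptojanins and 4 EHD ATPases. Ap1m2, Dab2 and Itsn1 of the same families were not analysed here.

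Neuro 2A (N2A), the cells used, is a mouse neuroblastoma line that extends neurites when its cannabinoid 1 receptor (CB1R) is stimulated. All 8 groups were starved for 16 h in serum-free MEM with 0.1% bovine serum albumin. They then received the CB1R agonist HU210, in DMSO and at 2 µM, or the same volume of DMSO without drug, and were collected 2 h, 4 h, 6 h or 8 h later. Each of the 8 conditions is 1 library of pooled mRNA from 2 to 3 experiments, so that a difference at a single time point has no replicate check.

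Clathrin is built of heavy chains, which form the lattice of the coat, and light chains, which regulate it. It does not bind membranes or cargo itself, and adaptors do this for it: AP-2 at the plasma membrane, AP-1 and the GGA proteins at the trans-Golgi network and endosomes. AP-3 sorts cargo to lysosomes and related organelles, and AP-4 and AP-5 work without clathrin. In neurons the pathway retrieves synaptic vesicle membrane and takes receptors up from the surface.

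Levels are given as FPKM (fragment counts divided by transcript length and library size), which can be compared between genes because they are per length. A log2 change is the log2 ratio of the HU210 to the DMSO library of the same hour after adding 1 FPKM to both, and a gene is called higher or lower when this ratio passes 1.5-fold. The added FPKM makes the ratio of weakly expressed genes too small. Of the 58 genes, 53 had a mean FPKM of at least 1 and were counted. The other 5, Amph, Ap5b1, Dnm3, Epn3 and Sh3gl2, lay below that level. Synj1, with a mean of 18.3 FPKM, was not listed at 2 h, which leaves 52 genes there and in the fits over all libraries.

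The libraries list 16372 to 16557 genes, of which 11328 to 11444 had an FPKM of at least 1, and reads per gene were not used here. The DMSO library of 4 h had the lowest mean rank correlation with the other 7 libraries, 0.981, against 0.984 for the HU210 library of 4 h and at least 0.986 for the other 6. Of 17 markers of sympathetic neuroblastoma, 16 were in the table and 14 had a mean FPKM of at least 1 (Nefl and Nefm did not), and their summed level was 550 to 680 FPKM in each library. The summed markers of fibroblasts, glia, endothelium and leukocytes were at most 2.45, 6.94, 1.38 and 0.614 FPKM. These sums rest on fewer genes, since 3 of 5, 3 of 5, 2 of 3 and 2 of 3 markers were in the table. Cnr1, which encodes CB1R, was at 15.5 to 27.9 FPKM.

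**Figure D1:**
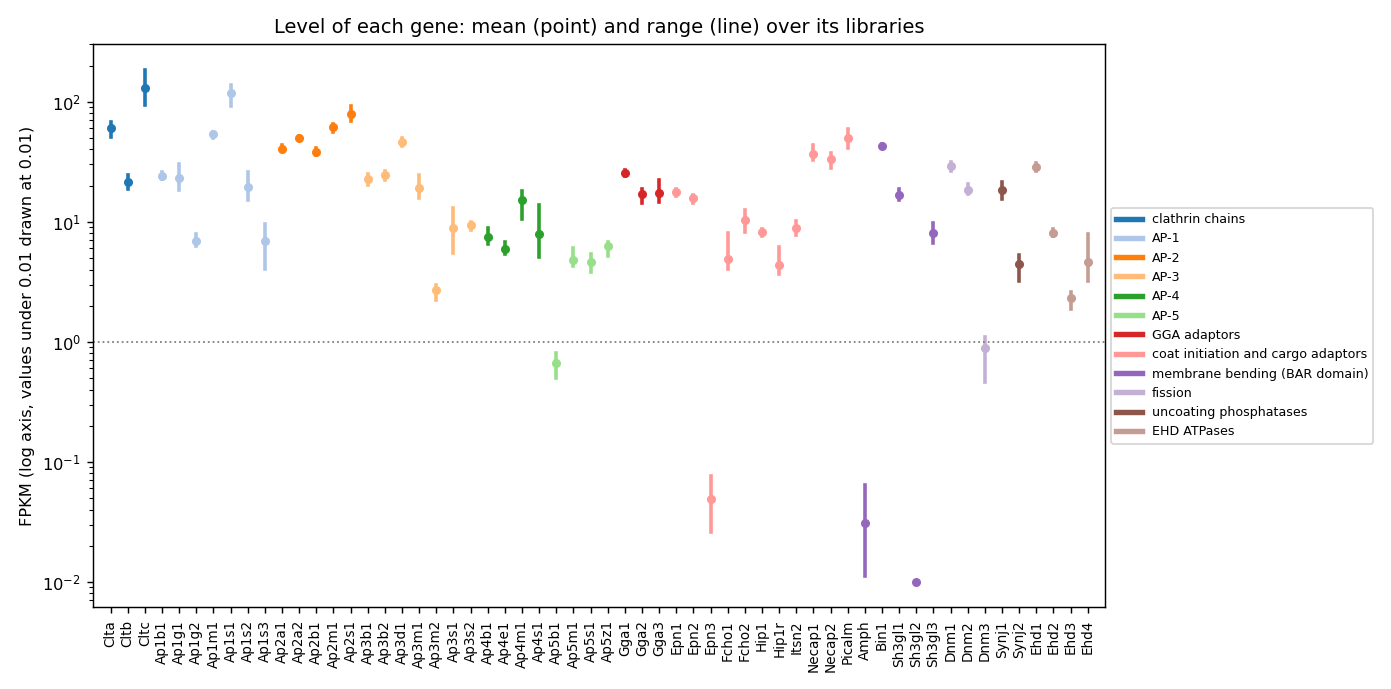
The mean FPKM of each of the 58 genes (point) and its lowest and highest library (line), on a log axis and coloured by complex or function. Cltc and Ap1s1 had the highest means, 129 and 118 FPKM, and 5 genes lie below the dotted line at 1 FPKM.

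The pathway was expressed almost complete in N2A cells. Cltc, the clathrin heavy chain, had the highest mean level at 129 FPKM, followed by Ap1s1 at 118, Ap2s1 at 78.9, Ap2m1 at 61.9 and Clta at 60.3 FPKM. The ranges of Cltc (93.9 to 185 FPKM) and Ap1s1 (92.5 to 138 FPKM) overlapped over the 8 libraries, as did those of Ap2m1 (56.5 to 65.6 FPKM) and Clta (51.1 to 67.7 FPKM). Among the 5 low genes are Amph (amphiphysin) and Sh3gl2 (endophilin A1), both known as brain forms, with means of 0.031 and 0.0011 FPKM. Their relatives Bin1 and Sh3gl1 had means of 42.7 and 16.8 FPKM.

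The HU210 and DMSO libraries differed little for most of these genes, and the direction of the small differences changed with the time point. In order of time, the median log2 change of the genes counted was -0.065, -0.071, 0.078 and 0.038. Over all genes with a mean FPKM of at least 1 it was -0.051, -0.081, 0.062 and 0.044. In bulk libraries, a change in the share of cells that express a gene and a change in its mRNA per cell cannot be told apart.

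At 2 h, none of the 52 genes was called, where 0.552% of all genes were called higher and 1.5% lower. At 4 h, 6 of 53 were called lower (8.74% of all genes) and 0 higher (2.78%). At 6 h, 3 of 53 were called higher (1.76%) and 0 lower (0.701%). At 8 h, 2 of 53 were called higher (1.16%) and 0 lower (0.579%). The shares of these genes that were called are thus near those of all genes or rest on 2 or 3 genes. The genes called are Ehd4, Cltc, Ap1g1, Ap4m1, Ap1s3 and Ap3m1 at 4 h, Fcho1, Ap3s1 and Ap1s2 at 6 h, and Ap4s1 and Ehd4 at 8 h. For 5 of the 6 genes called at 4 h, the DMSO library of that time was 0.35 to 0.98 above the mean of the other 3 DMSO libraries on the log2 scale. For Ap4m1 it was 0.090 above that mean. With that mean as the reference, a comparison chosen after the data were seen, 0 genes were called at 4 h. Ap4m1 was then at -0.57, just short of 1.5-fold, and the other 5 were at -0.33 to -0.076, while Cltc and Ap1s3 were called lower at 2 h (-0.72 and -0.70). Centred on its median, each library gave 1 gene called higher and 3 called lower at 4 h, and over all genes the higher share of the calls went from 24.2% to 46.7%.

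**Figure D2:**
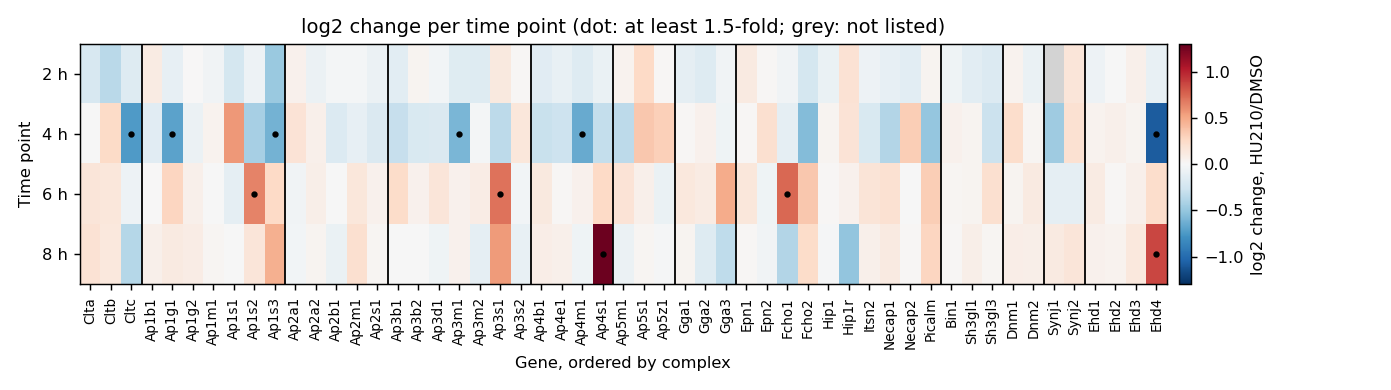
The log2 change between HU210 and DMSO for the 53 genes with a mean FPKM of at least 1 (columns, ordered by complex) at each time point (rows). Dots mark changes of at least 1.5-fold, and the 6 blue dots at 4 h and the 5 red dots at 6 h and 8 h are the calls named in the text.

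Over all 4 time points, limma with the time point as a block called 0 of these 52 genes and 0 of 11311 genes (0%) at a Benjamini-Hochberg adjusted p under 0.05. At an unadjusted p under 0.05 there were 148 genes (1.31%), 1 of them here, Cltc. A second fit compared the late libraries (6 h and 8 h) with the early ones (2 h and 4 h) in both treatments. Again limma called 0 genes (0%), with 815 (7.21%) at an unadjusted p under 0.05. The only one of these here was Ap2s1, the small subunit of AP-2, which was 0.19 lower late than early on the log2 scale (adjusted p = 0.686). The hour and the separate cultures cannot be told apart in this fit. It has no time point block and counts the HU210 and DMSO libraries of an hour as separate observations, so that its p-values can be too small. A further fit tested whether the drug effect differed between late and early time points. It called 0 genes (0%), with 1926 (17.0%) at an unadjusted p under 0.05. Of the 52 genes here 9 were among them, near the share of all genes: Ap1g1, Ap1s2, Ap1s3, Ap3s1, Ap4s1, Ehd4, Fcho2, Necap1 and Picalm. Their late drug effects were 0.41 to 1.13 above the early ones on the log2 scale, with limma adjusted p of 0.218 to 0.277. Over all genes in that fit, 65.6% had a later effect above the earlier one, and 42 of the 52 genes here did.

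Few genes kept 1 direction at all 4 time points. Ap2b1 and Cltc, 2 of 52, were lower with HU210 each time, where 3.43% of all genes were. Ap5s1, Dnm1, Ehd3 and Epn1, 4 of 52, were higher each time, where 4.5% of all genes were. A value below 0 at 4 h and above 0 at 6 h was found for 27 of 52 genes, near the 47.9% of all genes.

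The clathrin heavy chain was lower with HU210 in all 4 pairs of libraries, and the light chains Clta and Cltb were lower in 2 and 1 of them. Cltc, which encodes the heavy chain (mm9 chr11:86507853-86571067, minus strand), was at 93.9, 104.5, 110.3 and 143.3 FPKM with HU210, from the earliest to the latest time point, and at 105.5, 175.1, 115.7 and 185.2 FPKM with DMSO. All series of levels below are given in this order. The DMSO libraries of 4 h and 8 h were the highest, and the HU210 library was below its DMSO partner each time, while the ranges of the treatments overlapped. The log2 changes were -0.17, -0.74, -0.068 and -0.37. The limma difference over the time points was -0.34 (SE 0.125, 95% interval -0.64 to -0.03, adjusted p = 1). Against the mean of the other 3 DMSO libraries, Cltc was at -0.72, -0.33, -0.45 and 0.15 in order of time, past 1.5-fold at 2 h, short of it at 4 h and reversed at 8 h. After removal of the GC and length trend it was at -0.38 at 4 h, short of 1.5-fold.

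Clta and Cltb encode the light chains, of which Clta was the more abundant. Clta was at 58.5, 62.9, 63.8 and 58.1 FPKM with HU210 and at 67.7, 63.2, 57.2 and 51.1 FPKM with DMSO in order of time. Cltb was at 18.9, 24.7, 21.5 and 21.3 FPKM with HU210 and at 24.4, 20.6, 19.3 and 19.3 FPKM with DMSO. For both, the treatments overlapped, with limma differences over the time points of 0.031 for Clta (95% interval -0.19 to 0.26) and 0.045 for Cltb (-0.24 to 0.33). Clta made up 71.8% to 75.6% of the light chain FPKM in every library. The ratio of heavy chain to summed light chain FPKM was 1.21, 1.19, 1.29 and 1.80 with HU210 and 1.15, 2.09, 1.51 and 2.63 with DMSO. It was thus lower with HU210 at the last 3 time points and slightly higher at 2 h. Cltc has a lower transcript GC content (43.6%) than Clta (54.5%) and Cltb (52.2%). The ratio is given without removal of the GC and length trend.

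AP-2, the adaptor of the plasma membrane, was the complex with the steadiest mRNA levels. Its 5 subunits are the large chains Ap2a1, Ap2a2 and Ap2b1, the medium chain Ap2m1, which binds tyrosine-based sorting signals, and the small chain Ap2s1. Ap2m1 (mm9 chr16:20535551-20544982, plus strand), which the study chose for knockdown in neurons, was at 64.3, 59.7, 62.8 and 65.5 FPKM with HU210 and at 65.6, 64.3, 56.7 and 56.5 FPKM with DMSO. Its HU210 library was below DMSO at 2 h and 4 h and above it at 6 h and 8 h, by log2 changes of -0.03, -0.11, 0.15 and 0.21.

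The 3 large AP-2 chains varied less. Ap2a1 was at 41.8, 43.9, 39.9 and 38.6 FPKM with HU210 and at 40.3, 38.8, 41.1 and 39.6 FPKM with DMSO. Ap2a2 was at 47.8, 50.1, 52.0 and 51.5 FPKM with HU210 and at 50.6, 47.9, 49.2 and 50.1 FPKM with DMSO. Ap2b1 was at 36.5, 35.7, 38.3 and 38.5 FPKM with HU210 and at 37.2, 40.5, 38.3 and 40.9 FPKM with DMSO. The treatments overlapped for Ap2a1, Ap2a2 and Ap2b1 alike, although Ap2b1 was lower with HU210 in each pair, by log2 changes of -0.0011 to -0.18. Ap2s1 was at 79.4, 80.7, 78.9 and 70.9 FPKM with HU210 and at 84.1, 91.9, 75.6 and 69.4 FPKM with DMSO, lowest in both libraries of 8 h.

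No AP-2 subunit was called at any time point, and their log2 changes lay between -0.19 and 0.21. The limma differences over the time points were -0.072 to 0.055, and their 95% intervals together spanned -0.25 to 0.26, with an adjusted p of 1. From the lowest to the highest library, the AP-2 mRNAs differed by 1.09-fold to 1.32-fold. The median SD of the 5 over the 8 libraries, on the log2 scale, stood at the 4.58 percentile of all genes in the fits. Mean levels were 38.2 to 78.9 FPKM for AP-2, but 5.92 to 15.2 for AP-4 and 4.59 to 6.30 for AP-5. The SDs were not matched for level or GC content. For all 52 genes the median SD was 0.118 against 0.145 over all genes, and 23 of the 52 were below the 25 percentile of all genes while 6 were at or above the 90 percentile. Near-identical copies elsewhere in mm9 (at least 90% identity over at least 200 bases) match parts of the transcripts of Ap2m1, with 4, and Ap2b1, with 1, so that their reads may be shared with these copies. On the opposite strand, exons of Fuz overlap 720 bases of Ap2a1 exons and those of Gm16982 overlap 241 bases of Ap2a2 exons. Reads of these overlaps may have been counted together, as for Ap1g1 below.

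AP-1, the adaptor of the trans-Golgi network and endosomes, held both steady and variable subunits. Its large chain Ap1b1 and medium chain Ap1m1 had means of 23.9 and 53.6 FPKM and differed by 1.15-fold and 1.11-fold from the lowest to the highest library, and the second gamma chain Ap1g2 had a mean of 6.94 FPKM and log2 changes of -0.071 to 0.095. Ap1g1, the main gamma chain (mm9 chr8:112302454-112385258, plus strand), was at 21.7, 18.3, 24.2 and 24.9 FPKM with HU210 and at 23.5, 30.4, 19.7 and 22.8 FPKM with DMSO. The 4 h libraries were its lowest and highest, with a log2 change of -0.70, and -0.25 against the mean of the other 3 DMSO libraries. An annotated gene on the opposite strand, Gm17344, overlaps 436 bases of Ap1g1 exons, and whether reads were counted by strand is not given in the sources used here (the study's reagents include a stranded kit, while the library protocol in the labels names none). Reads of both genes may therefore have been counted together.

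The small (sigma) chains of AP-1 are close relatives with different base composition, and their log2 changes at 4 h differed in sign. The stretches below are 40 aligned codons of Ap1s1 and Ap1s3, read from GENCODE vM1 transcripts on mm9, 5′ to 3′. They were picked as the stretch with the most identical amino acids and do not stand for the whole proteins. They are shown because most of their amino acids are the same while many of their bases differ. Capitals mark codons that end in G or C, of which Ap1s1 has 31 and Ap1s3 16. Ap1s1 lies at chr5:137510863-137522005 (minus strand) and Ap1s3 at chr1:79603451-79668547 (minus strand). In the order printed, they are coding bases 319 to 438 and 220 to 339 of their transcripts.
Ap1s1: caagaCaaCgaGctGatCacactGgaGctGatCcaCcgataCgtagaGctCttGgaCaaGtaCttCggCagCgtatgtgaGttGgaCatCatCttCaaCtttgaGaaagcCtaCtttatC
Ap1s3: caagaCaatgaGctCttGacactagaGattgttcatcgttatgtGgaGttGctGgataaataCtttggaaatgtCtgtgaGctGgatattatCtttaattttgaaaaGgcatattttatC
Ap1s1 and Ap1s3 encode the same amino acid at 36 of these 40 codons while 32 of 120 bases differ, 25 of them at the last position of a codon.

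Ap1s1 was at 99.4, 137.6, 124.7 and 118.4 FPKM with HU210 and at 116.6, 92.5, 134.9 and 119.1 FPKM with DMSO. Ap1s2 was at 21.7, 15.2, 26.2 and 17.7 FPKM with HU210 and at 22.8, 20.9, 16.3 and 15.7 FPKM with DMSO. Ap1s3 was at 4.07, 5.84, 8.39 and 8.31 FPKM with HU210 and at 6.09, 9.51, 6.84 and 5.74 FPKM with DMSO. The treatments overlapped for all 3 sigma chains. At 4 h, Ap1s1 was higher with HU210 (log2 change 0.57, short of 1.5-fold) and Ap1s2 and Ap1s3 were lower (-0.43 and -0.62). At 6 h it was the reverse, with Ap1s1 at -0.11, Ap1s2 at 0.65 and Ap1s3 at 0.26.

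The share of Ap1s1 in the summed sigma FPKM was 79.4%, 86.7%, 78.3% and 82.0% with HU210 and 80.2%, 75.3%, 85.4% and 84.7% with DMSO, so that its highest and lowest shares were those of the 4 h libraries. Transcript GC content is 55.9% for Ap1s1, 35.4% for Ap1s2 and 39.5% for Ap1s3, and the shares are without removal of the GC and length trend. Ap1s3 was lower with HU210 at 2 h and 4 h and higher at 6 h and 8 h, with log2 changes of -0.48, -0.62, 0.26 and 0.46. Its late drug effect was 0.91 above the early one (95% interval 0.53 to 1.29), the lowest limma adjusted p of the 52 genes at 0.218. Part of the longest Ap1s3 transcript matches 31314 other places in mm9, so that its level depends on how the authors treated reads with several matches. The 6 h call of Ap1s2 was lost with libraries centred (0.57), after removal of the GC and length trend (0.50) and with the mean of the 4 DMSO libraries as the reference (0.46).

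**Figure D3:**
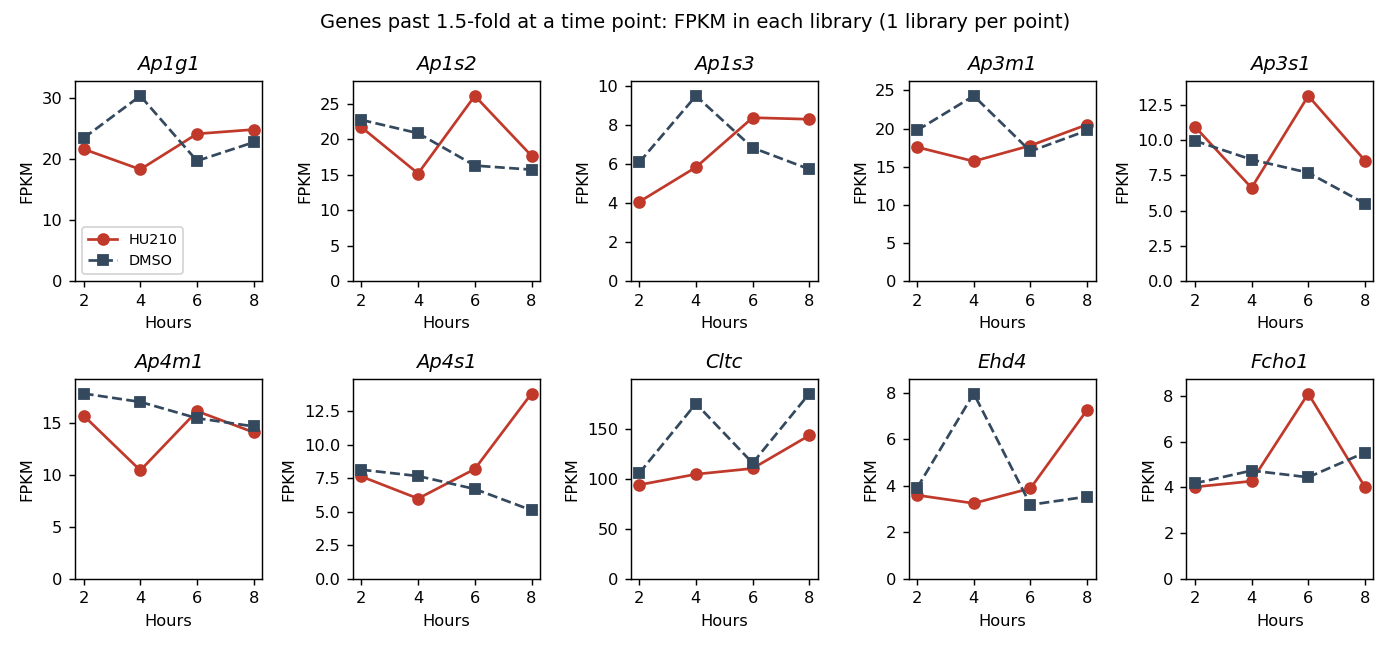
FPKM of the 10 genes called at any time point, in each of the 8 libraries, with HU210 (red circles) and DMSO (dark squares) against the hour of collection. Each point is 1 library without an error bar, and the 4 h calls of Ap1g1, Ap1s3, Ap3m1, Cltc and Ehd4 coincide with a DMSO library above its neighbours in time.

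AP-3 carried 2 of the 10 called genes. Its large chain Ap3d1 was the most abundant subunit, at 43.0, 43.3, 50.3 and 46.5 FPKM with HU210 and at 44.1, 49.5, 45.1 and 48.5 FPKM with DMSO, with overlapping treatments. The beta chains, the general Ap3b1 and the neuronal Ap3b2, were present in nearly equal amounts, Ap3b2 making up 50.0% to 53.8% of their FPKM. Neither was called, with log2 changes between -0.30 and 0.24. The medium chains were unequal, with means of 19.0 FPKM for Ap3m1 and 2.68 FPKM for its neuronal relative Ap3m2.

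The coding stretches of Ap3m1 (chr14:21850664-21871730, minus strand) and Ap3m2 (chr8:23897826-23916126, minus strand) are shown for the same contrast, again as 40 codons on mm9 with codons ending in G or C in capitals, at coding bases 304 to 423 of both.
Ap3m1: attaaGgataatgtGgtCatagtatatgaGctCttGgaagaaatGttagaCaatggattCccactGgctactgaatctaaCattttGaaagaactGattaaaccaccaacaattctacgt
Ap3m2: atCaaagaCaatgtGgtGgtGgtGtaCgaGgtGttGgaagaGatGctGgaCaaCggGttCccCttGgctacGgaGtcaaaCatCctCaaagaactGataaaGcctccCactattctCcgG
They encode the same amino acid at 38 codons, and 13 codons of Ap3m1 end in G or C against 29 of Ap3m2. Ap3m1 was at 17.6, 15.7, 17.8 and 20.5 FPKM with HU210 and at 19.8, 24.3, 17.0 and 19.7 FPKM with DMSO. Its log2 change at 4 h was -0.60 and -0.16 to 0.059 at the other times, and that of Ap3m2 at 4 h was -0.025. Exons of Vcl on the opposite strand overlap 2087 bases of Ap3m1 exons, and a near-identical copy of part of its transcript lies elsewhere in mm9.

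Ap3s1, an AP-3 sigma chain, was at 11.0, 6.61, 13.1 and 8.55 FPKM with HU210 and at 9.95, 8.62, 7.69 and 5.50 FPKM with DMSO. It was called higher at 6 h (log2 change 0.70) and was 0.55 higher at 8 h, while at 4 h it was at -0.34. Its DMSO level was lower at each later time point, and the treatments overlapped. The other sigma chain, Ap3s2, stayed between 8.57 and 9.91 FPKM. Ap3s1 made up 52.5%, 40.9%, 58.6% and 49.3% of their summed FPKM with HU210 and 50.4%, 50.1%, 44.6% and 36.7% with DMSO. The 6 h call was kept under each alternative run, with log2 changes of 0.61 to 0.77. Near-identical copies of parts of the Ap3s1 transcript lie at 6 other places in mm9.

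**Figure D4:**
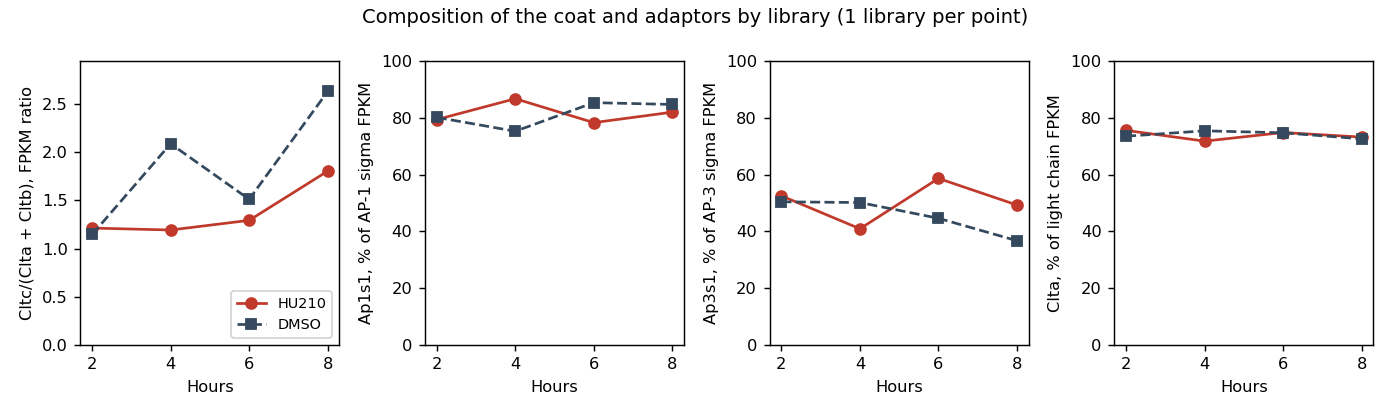
The ratio of clathrin heavy chain to summed light chain FPKM and the percent shares of Ap1s1, Ap3s1 and Clta in their subunit families, by hour, with HU210 (red circles) and DMSO (dark squares), 1 library per point. The heavy chain ratio of DMSO reached 2.09 at 4 h and 2.63 at 8 h, while the share of Clta stayed between 71.8% and 75.6%. All values are without removal of the GC and length trend.

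The 4 subunits of AP-4, which exports the autophagy protein ATG9 from the trans-Golgi network, were all lower with HU210 at 2 h and 4 h and all higher at 6 h. Most of all genes went the same way, with 36.0% higher with HU210 at 2 h, 41.0% at 4 h and 65.5% at 6 h. Ap4m1, the medium chain of AP-4 (mm9 chr5:138613230-138619936, plus strand) and its most abundant subunit, was at 15.7, 10.5, 16.2 and 14.1 FPKM with HU210 and at 17.9, 17.1, 15.5 and 14.7 FPKM with DMSO. Here the HU210 library of 4 h was the low one, below the other 7, and the log2 change was -0.66. Of the 6 genes called at 4 h, Ap4m1 alone stayed past 1.5-fold with the mean of the 4 DMSO libraries as the reference (-0.59), and it and Ehd4 alone after removal of the GC and length trend (-0.69). With libraries centred it was at -0.56 at 4 h, short of 1.5-fold, and below 0 at 6 h (-0.025). Exons of Mcm7 and Taf6 on the opposite strand overlap it by 413 bases in all.

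Ap4s1, the sigma chain of AP-4 (mm9 chr12:52791953-52839918, plus strand), showed the largest log2 change of these genes. It was at 7.64, 5.99, 8.20 and 13.8 FPKM with HU210 and at 8.15, 7.67, 6.71 and 5.12 FPKM with DMSO. At 8 h its highest and its lowest library met, with a log2 change of 1.28, and against the mean of the other 3 DMSO libraries it was 0.81. The other AP-4 subunits at 8 h were at -0.054 to 0.082. AP-5, a complex of late endosomes, was low, with means of 4.59 to 6.30 FPKM for Ap5m1, Ap5s1 and Ap5z1 and none called. Ap5z1, its most abundant subunit, was at 6.74, 6.67, 6.17 and 6.14 FPKM with HU210 and at 6.63, 5.20, 6.63 and 6.24 FPKM with DMSO.

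The GGA adaptors, which sort mannose 6-phosphate receptors, had means of 16.9 to 25.2 FPKM, and none was called. Gga1, the most abundant, was at 24.7, 24.5, 27.2 and 25.2 FPKM with HU210 and at 26.8, 24.2, 24.7 and 24.6 FPKM with DMSO. All 3 were lower with HU210 at 2 h and higher at 6 h, the latter by log2 changes of 0.11 to 0.48, of which 0.48 was that of Gga3. Most of all genes also went in these directions at 2 h and 6 h.

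Among the coat initiation and cargo adaptors, Fcho1 was called once. Fcho1 and Fcho2 encode membrane-bending proteins that help to start a clathrin-coated pit. Fcho1 (mm9 chr8:74232286-74249615, minus strand) was at 4.02, 4.27, 8.11 and 4.02 FPKM with HU210 and at 4.18, 4.74, 4.45 and 5.53 FPKM with DMSO. The HU210 library of 6 h stood above the other 7, with a log2 change of 0.74, and at 8 h the change was -0.38. The 6 h call was kept under each alternative run, with log2 changes of 0.65 to 0.85. Fcho2 was at -0.57 at 4 h and 0.35 at 6 h, and its late drug effect was 0.69 above the early one (limma adjusted p = 0.229).

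Picalm, a clathrin assembly protein that binds phosphoinositides and sorts vesicle SNAREs, was the most abundant of this group. It was at 52.0, 41.5, 55.6 and 52.1 FPKM with HU210 and at 50.7, 59.3, 44.3 and 42.8 FPKM with DMSO. Its lowest and highest library were those of 4 h, with a log2 change of -0.50, and it was 0.32 and 0.28 higher with HU210 at 6 h and 8 h. The epsins Epn1 and Epn2, the actin-linking Hip1 and the scaffold Itsn2 had log2 changes between -0.19 and 0.20 at all time points. Hip1r, the relative of Hip1, was at -0.52 at 8 h.

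Necap1 and Necap2 encode partners of AP-2 and differ in base composition like the AP-1 sigma chains. The stretches are 40 aligned codons of Necap1 (mm9 chr6:122824492-122838952, plus strand, coding bases 166 to 285) and Necap2 (chr4:140622427-140634272, minus strand, coding bases 163 to 282), with codons ending in G or C in capitals, 24 and 33 of them.
Necap1: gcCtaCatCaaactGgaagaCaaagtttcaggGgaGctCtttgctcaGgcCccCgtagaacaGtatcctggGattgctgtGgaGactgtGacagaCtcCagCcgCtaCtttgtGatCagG
Necap2: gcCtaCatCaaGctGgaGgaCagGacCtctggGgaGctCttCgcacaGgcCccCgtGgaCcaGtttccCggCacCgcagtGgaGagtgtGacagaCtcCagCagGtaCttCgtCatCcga
The amino acid is the same at 34 codons. At 4 h, the HU210 and DMSO libraries held 33.3 and 43.8 FPKM of Necap1 (log2 change -0.38) but 35.0 and 27.8 FPKM of Necap2 (0.32). Their log2 changes at 6 h were 0.20 and -0.0070.

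None of the genes of membrane bending, fission and uncoating was called. Bin1, the most abundant bending protein, was at 42.2, 43.3, 42.4 and 43.3 FPKM with HU210 and at 44.1, 41.6, 41.8 and 42.7 FPKM with DMSO, and its SD over the libraries stood at the 0.053 percentile of all genes in the fits. Dnm1, the neuronal dynamin, a GTPase that cuts the neck of the vesicle, was at 29.0, 31.2, 31.0 and 29.8 FPKM with HU210 and at 28.0, 26.5, 30.2 and 28.0 FPKM with DMSO. Dnm2, the dynamin of all tissues, was at 17.0, 18.4, 18.6 and 20.6 FPKM with HU210 and at 18.1, 18.1, 17.1 and 19.4 FPKM with DMSO. Dnm1 was higher with HU210 in each pair, by log2 changes of 0.038 to 0.23, and the treatments overlapped for both dynamins.

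Dnm3 was low, at 0.887, 0.809, 0.459 and 1.10 FPKM with HU210 and at 0.941, 0.915, 0.927 and 1.03 FPKM with DMSO, so that it was not counted. Dnm1 made up 57.8% to 62.6% of the dynamin FPKM in every library. Synj1 encodes a phosphoinositide phosphatase of the uncoating step. At the last 3 time points it was at 15.4, 16.7 and 19.7 FPKM with HU210 and at 21.6, 18.2 and 18.1 FPKM with DMSO. Its log2 change at 4 h was -0.46, against 0.20 for its relative Synj2.

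The EHD ATPases act in the recycling of endocytosed membrane. Ehd1 was at 28.0, 30.1, 31.0 and 27.8 FPKM with HU210 and at 29.4, 29.1, 28.8 and 26.6 FPKM with DMSO, and Ehd1, Ehd2 and Ehd3 had log2 changes between -0.067 and 0.14. Ehd4 (mm9 chr2:119914911-119980342, minus strand) was at 3.60, 3.25, 3.90 and 7.27 FPKM with HU210 and at 3.91, 7.98, 3.19 and 3.54 FPKM with DMSO. Its high libraries were 1 of DMSO, at 4 h, and 1 of HU210, at 8 h, and the other 6 lay between 3.19 and 3.91 FPKM. The log2 changes were therefore -1.08 at 4 h and 0.87 at 8 h, and -0.094 and 0.54 against the mean of the other 3 DMSO libraries. The late drug effect was 1.13 above the early one (95% interval 0.24 to 2.03, limma adjusted p = 0.248). The SD of Ehd4 over the libraries stood at the 97.7 percentile of all genes in the fits.

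The changes of these genes at 4 h went with the GC content of their transcripts, as did those of all genes. Spearman's rho between the log2 change and the GC content of the longest annotated transcript was 0.63 over the 52 genes and 0.53 over 10590 genes at 4 h. At the other 3 time points, in order, rho over the 52 genes was 0.29, -0.34 and -0.31, and over all genes 0.17, -0.30 and -0.15. Genes are not independent replicates, and all share the same pair of libraries, so that rho is given as a description. Measured against the mean of the 8 libraries, the DMSO library of 4 h had a rho of -0.64 with the GC content of the 52 genes, and the HU210 library of 4 h had 0.53. Over all genes these values were -0.48 and 0.47. In the other libraries, rho over the 52 genes lay between -0.32 (HU210 at 8 h) and 0.36 (DMSO at 6 h).

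After removal of this trend, fitted on GC content and transcript length, rho at 4 h was 0.17 over the 52 genes, and Ehd4 and Ap4m1 (-0.69) were the 2 genes called there. Without the trend, Cltc was at -0.38, Ap1g1 at -0.52, Ap1s3 at -0.33 and Ap3m1 at -0.20. The calls of Fcho1 and Ap3s1 at 6 h and of Ap4s1 and Ehd4 at 8 h were kept, with log2 changes of 0.61 to 1.23. Over all genes the trend-free calls at 4 h were 2.38% higher and 3.61% lower.

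**Figure D5:**
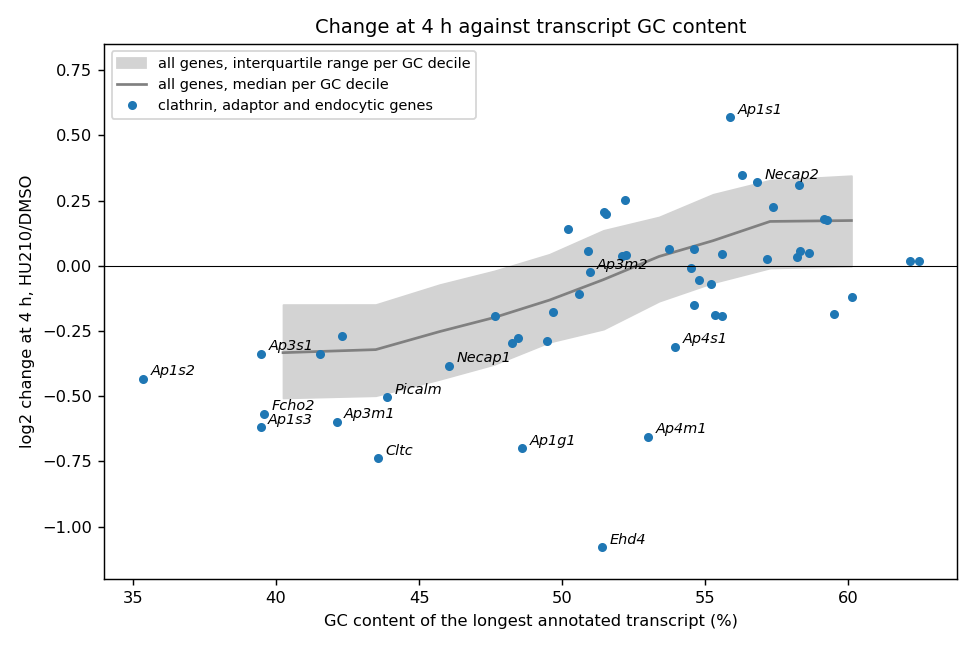
The log2 change at 4 h of the 52 genes (points) against the GC content of their longest annotated transcript in percent, with the median (line) and interquartile range (band) of all genes in 10 GC bins. Genes with low GC lie below 0, and Ehd4, Ap4m1 and Ap1g1 lie far under the band.

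Pairs of related genes picked from these families were compared by their codons ending in G or C, a measure other than the transcript GC content above. Clta and Cltb stand in the opposite order by transcript GC content (54.5% and 52.2%). In 16 pairs of paralogues, put together after the values had been seen and with Ap1s1 in 2 of them, the member with fewer codons ending in G or C had the lower log2 change at 4 h in 15, the exception being Epn1 with Epn2. The median difference between the pair members was -0.38 on the log2 scale. At 6 h and 8 h the member with fewer such codons was the lower one in 6 of 16 pairs, and at 2 h in 10 of 15. With the trend removed it was the lower one at 4 h in 9 of 15 pairs, with a median difference of -0.22. The difference was then -0.77 for Ap1s3 with Ap1s1 and -0.60 for Ap1s2 with Ap1s1. Of the 16 pairs, those with the largest differences at 4 h were Ap1s3 with Ap1s1 (-1.19), Ap1s2 with Ap1s1 (-1.002) and Necap1 with Necap2 (-0.70). The pairs left out the GGA and EHD genes and Ap1s2 with Ap1s3, where the order at 4 h went both ways. The count of 15 in 16 thus depends in part on the choice of pairs. Against Gga1 (75.3% of codons ending in G or C, log2 change 0.016), Gga2 (62.25%) was higher at 0.057 and Gga3 (62.17%) lower at -0.056. Ehd4 (74.9%) was at -1.08, below both Ehd1 (81.9%, 0.049) and Ehd3 (72.0%, 0.039), and Ehd2 (72.6%) was above Ehd1 at 0.063. Ap1s3 (51.0%) was at -0.62 and Ap1s2 (45.3%) at -0.43.

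Other genes of the clathrin pathway, outside the families above, were counted in the same way. Of 47 such genes, 45 were in the table and 42 had a mean FPKM of at least 1, and 5 were called lower at 4 h (8.74% of all genes), 1 higher at 6 h (1.76%) and none at 2 h or 8 h. These counts are near the shares of all genes. The 5 were Wasl (-0.95), an activator of actin branching, Clvs1 (-0.83), a lipid-binding protein of clathrin-coated vesicles, Aak1 (-0.81), the kinase that phosphorylates Ap2m1, Ap1ar (-0.66), which binds AP-1, and Sgip1 (-0.62), a relative of the Fcho proteins. Wasl was also the gene called at 6 h (0.62). Aak1 was at 5.42, 6.85, 7.28 and 10.2 FPKM with HU210 and at 8.20, 12.8, 7.54 and 12.7 FPKM with DMSO. As with Cltc, its highest libraries were those of DMSO at 4 h and 8 h, and its HU210 library was the lower one each time. Of 6 cargo receptors, 5 were counted and none was called, with log2 changes between -0.28 and 0.14.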

How the data were processed

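The authors mapped the reads of the 8 mRNA libraries with TopHat2 2.0.8, Bowtie2 2.1.0 and SAMtools 0.1.7 to mm9 with Ensembl gene models. Cufflinks, whose version is not given in the sources used here, gave FPKM with upper-quartile normalization and corrections for fragment bias and for reads with several matches. The authors deposited each FPKM with 1 added, which was subtracted here. The p-value, the q-value (held as a score, since it can pass 1) and the log2 fold change that the authors deposited beside the FPKM, and their list of differentially expressed genes, are their own comparisons and were not used. Each time point comes as its own comparison of a pair of libraries, so that levels across time points may carry differences of scaling. Each library had a sequencing lane of its own. Counts of reads per gene were not used here, so that the counting error of each FPKM is unknown.

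Genes were matched by symbol to the family name patterns. The members and the lists were chosen with earlier results of these data known. Libraries were grouped by the treatment and hour in their titles. At a time point there is no test, and 1.5-fold in either direction is a call among genes with a mean FPKM of at least 1. Over the 8 libraries, limma 3.58.1 in R 4.3.3 was fitted to log2(FPKM + 1) of 11311 genes with a variance trend and Benjamini-Hochberg adjustment at 0.05. Its p-values measure only the spread between these libraries. The fits compared HU210 with DMSO with the time point as a block, late with early libraries with the treatment as a covariate, and the drug effect late with early. They were tested on simulated data, as was the removal of the trend on GC content.

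Levels in all 8 libraries are given for genes past 1.5-fold at any time point, for Cltc, Clta, Cltb, the AP-2 subunits and Dnm1 to Dnm3, and for the most abundant gene of each group. Other genes named are examples or the extremes of a range, and Ap1s1, Synj1 and Aak1 were given in full after their values had been seen. The paralogue pairs and the genes whose codons are printed were also chosen after values had been seen. Positions, transcripts and GC content come from GENCODE vM1 on mm9, which gave a GC content for all 52 genes in the fits. Codon stretches are the 40 aligned codons with the most identical amino acids. Near-identical copies were searched with blastn 2.17.0 at 90% identity over at least 200 bases.

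The alternatives were a pseudocount of 0.1, no filter on low values, libraries centred on their median, a loess trend on GC content and length removed (span 0.3, degree 1), the mean of the 4 DMSO libraries or of the other 3 as the reference, a 1.3-fold cutoff, no time point block, the hour as a linear covariate, and each pair of libraries left out. Tables were handled in Python 3.11.15 (pandas 2.3.3, scipy 1.17.1).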

Additional observations from a re-analysis of the deposited data

Results flagged for a closer look

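Ehd4, an ATPase of endosomal recycling, was past 1.5-fold in opposite directions at 2 time points, lower with HU210 at 4 h (log2 change -1.08) and higher at 8 h (0.87), which flagged it. The change at 8 h was 1.94 above that at 4 h, a difference between 2 single pairs of libraries that was not tested as such. The limma test of the late against the early drug effect gave 1.13 for Ehd4 with an adjusted p of 0.248. The 4 h value rests on the DMSO library of that time, at 7.98 FPKM, and the 8 h value on the HU210 library, at 7.27 FPKM, with the other 6 libraries at 3.19 to 3.91 FPKM.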

How the results depend on the processing

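With 1 library per condition, no call at a time point has a replicate error, and without read counts the counting error of an FPKM is unknown. At 2 h, 0 calls became 2 (Cltc and Ap1s3) with the mean of the other 3 DMSO libraries as the reference, and 1 (Ap1s3) with the mean of the 4 DMSO libraries or a 1.3-fold cutoff. At 4 h, 6 calls became 2 after removal of the GC and length trend, 1 with the mean of the 4 DMSO libraries, 0 with that of the other 3 and 12 at 1.3-fold. At 8 h, 2 calls became 4 with a pseudocount of 0.1, 6 at 1.3-fold and 1 with the other 3 DMSO libraries. The median change reversed with libraries centred, to 0.028 at 4 h, -0.0055 at 6 h and -0.025 at 8 h, and to -0.014 at 8 h with the trend removed. Over all genes, centring moved the share of calls that were higher from 71.5% to 53.5% at 6 h and from 66.7% to 52.4% at 8 h. The limma fit of late against early libraries called 1 gene with the trend removed. That of the late against the early drug effect called 2 to 1741 genes and 0 to 10 of the genes here when a pair of libraries was left out, the highest values without the 2 h pair, which leaves 1 residual degree of freedom. Cltc over the time points was at -0.42 to -0.20 with a pair left out and kept an adjusted p above 0.05. Of the alternative values, 146 were classed as the same, 23 fell short of the threshold, 2 passed it, 17 moved and 4 reversed. For a single gene, the same means its direction and side of the threshold were kept. For a count it means at most a 1.5-fold difference, and for a median a shift below the SD of the DMSO library medians. A count classed as the same can hold other genes. With libraries centred, the 6 calls at 4 h became 4, and 3 of the 6 were kept. Apart from the alternative's own construction, the cause was not tested. No paired analysis by replicate number was possible because each condition has 1 library, and the time point served as the block.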
